A study of Mus musculus with 28 samples.

Results

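The genes described are those that encode the subunits, activators and assembly factors of the proteasome. They were taken as the protein-coding genes whose symbol starts with *Psma*, *Psmb*, *Psmc*, *Psmd*, *Psme* or *Psmg*, which gave 48 of the 21432 protein-coding genes in the chromatin RNA count file. Of these, 46 also had an RNA-seq value in every library of the knock-down experiment, among 15384 genes with one, and *Psmb8* and *Psmb11* had none. The rule also caught *Psmc3ip*, a cofactor of meiotic recombination that is not a proteasome part but is kept in the counts below. The other 47 genes encode subunits, activators or assembly factors. By role they are 7 core alpha, 7 core beta, 3 immunoproteasome core and 2 tissue-specific core genes, 9 genes of the base, 8 of the lid, 4 activators and 7 assembly factors.

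The cells were mouse ES cells (mESCs) of the E14 line, grown on gelatin in medium with serum and leukaemia inhibitory factor (LIF), which keeps them undifferentiated. In 4 *Ssrp1* knock-down (KD) libraries the cells had been transfected with a combination of 2 hairpins against *Ssrp1*, and in 4 control libraries with a scramble hairpin vector. Puromycin at 2 µg/ml was applied to both groups from 48 h after transfection for 24 h, and ERCC spike-in RNA was added to both. SSRP1 and SUPT16 are the subunits of FACT, a histone chaperone. By the paper's account it reorganizes nucleosomes, the histone units of chromatin, so that polymerases can pass while nucleosomes stay intact. ChIP-seq of each subunit gave 1 peak list from 2 replicates, and 2 libraries of chromatin RNA, the RNA still held on chromatin, came from untreated E14 cells. The hairpins and the loss of SSRP1 cannot be told apart in this design, since 1 hairpin combination was used.

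The proteasome is the machine that degrades proteins tagged with ubiquitin. Its core particle is a barrel of alpha and beta rings, and the beta ring holds the catalytic subunits: *Psmb6* (caspase-like), *Psmb7* (trypsin-like) and *Psmb5* (chymotrypsin-like). Interferon-inducible copies (*Psmb9*, *Psmb10* and *Psmb8*, in the same order) can take their places and form the immunoproteasome. A regulatory particle caps the barrel. Its base carries the ATPases that unfold substrates, and its lid removes ubiquitin. Alternative activators (*Psme1* to *Psme4*) open the barrel without the regulatory particle, and chaperones such as *Psmg1* to *Psmg4* assemble the rings. The subunits are needed in fixed ratios, and their genes are known to be raised together by the transcription factor NRF1 (*Nfe2l1*) when proteasome activity falls short. ES cells depend on the complex as other dividing cells do.

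The knock-down was checked first. *Ssrp1* was at 261, 229.8, 223 and 226 normalized reads in the control libraries and at 24.1, 26.4, 24.9 and 28.9 in the KD libraries, and the groups lay far apart (it fell by 3.15 on the log2 scale, SE 0.07, adjusted p = 1.18e-22). *Supt16* went from 346, 307, 296 and 326 to 529, 481, 507 and 498. These are RNA values, and the paper reports from mass spectrometry that the SUPT16 protein was depleted along with SSRP1. Normalized reads are the deposited counts per gene divided by a library-size factor. Between 4602278 and 6680919 reads on the tested genes lay behind a control library and between 9433193 and 19856032 behind a KD library. One read was worth 0.136 to 0.179 normalized reads in the control libraries and 0.0580 to 0.124 in the KD libraries. The 6 ES cell markers (*Pou5f1*, *Sox2*, *Nanog*, *Esrrb*, *Zfp42* and *Dppa5a*) were all present and summed to 1419 to 1526 in control and 3850 to 4259 in KD. The 3 primitive endoderm markers summed to 30.8 to 47.0 in control and 9.52 to 12.7 in KD, and the 3 fibroblast markers to 35.5 to 46.5 and 11.2 to 12.6. The fibroblast sum follows *Col1a1* and *Col1a2*, as *Thy1* hardly moved (-0.13, groups overlapping). The 3 trophectoderm markers summed to 917 to 1252 in control and 720.0 to 768 in KD. That sum follows *Krt8* and *Krt18*, whose spike-in scaled means were higher in KD (from 482 to 772 and from 263 to 334). The leukocyte marker *Ptprc* had no value. Of the 4 neural markers, *Tubb3* rose (1.69) while *Pax6* (-1.46), *Map2* (-1.22) and *Nes* (-0.36, though higher in KD with spike-in scaling) fell, and their sum of 81.0 to 102 in control and 142 to 154 in KD follows *Tubb3*. Depth and these markers therefore separate the groups in the same way as the knock-down, and their part in the results below was not tested.

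Most proteasome genes were higher in KD at these library-size values, by less than 1 on the log2 scale, and 1 catalytic subunit stood apart. Of the 46 genes, 44 had a log2 fold change above 0, and the median was 0.67, against -0.03 over all 15384 genes. Past an adjusted p of 0.01 (limma on log2(value + 0.5), Benjamini-Hochberg over all genes), 42 genes rose, where 35.4% of all genes did, and 2 fell, *Psmb9* and *Psmd11*, where 37.3% of all genes did. *Psmb1* (0.18, adjusted p = 0.0117) and *Psmd9* (0.25, adjusted p = 0.0139) passed in neither direction. With the added demand of a log2 fold change beyond 1 in size, 6 genes rose (*Psmb6*, *Psmb10*, *Psmg4*, *Psmg1*, *Psme3* and *Psmb5*), beside 8.07% of all genes, and 1 fell (*Psmb9*), beside 20.6%. All 4 KD libraries lay above all 4 control libraries for 40 of the 46 genes, beside 35.8% of all genes, and below them for 2, beside 37.5%. The share of all genes depends on their level. Among the 10765 genes with a mean value of at least 10, 48.3% rose and 26.1% fell past the adjusted p, and the median was 0.22. Of the 45 proteasome genes among them, 42 rose and 1 fell, and their median was 0.68.

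**Figure D1:**
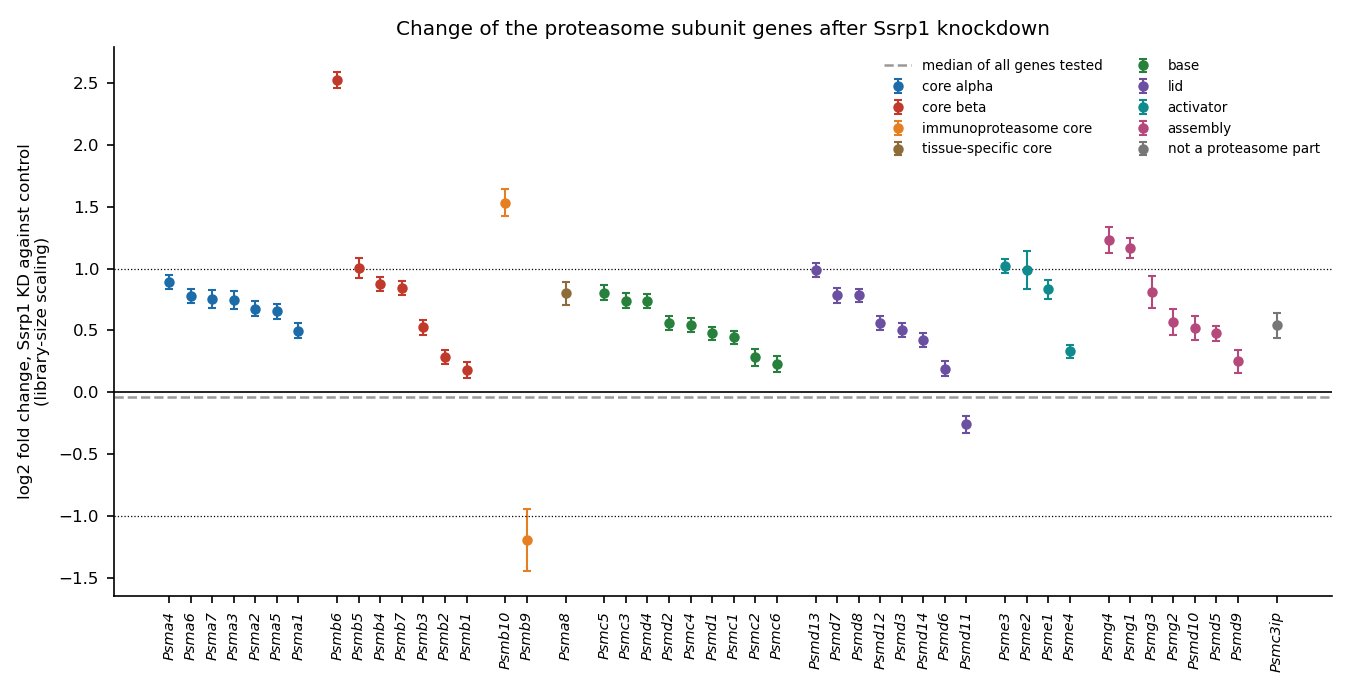
Log2 fold change of each proteasome gene, *Ssrp1* KD against control, with its standard error (n = 4 libraries in each group), ordered by class and then by size. The dotted lines mark 1 and -1, the dashed line the median of all genes tested (-0.03); *Psmb6* at 2.52 stands above all others and *Psmb9* at -1.19 below them.

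Many of these directions depend on how the libraries were scaled, while *Psmb6* and *Psmb10* were past both thresholds upwards under each of the 24 settings tried. The library-size values are TMM-scaled, so they do not sum to the same total: 825584 to 909417 in the control and 1137290 to 1182580 in the KD libraries. When the reads were divided by the total reads of each library instead, the median of all genes moved to -0.45 and that of the proteasome genes to 0.24, with 36 genes higher and 10 lower, and 24 past the adjusted p upwards and 5 downwards, beside 18% and 56.5% of all genes. Under quantile normalisation the medians were 0.05 and 0.22, and 33 genes were higher and 13 lower. Past the adjusted p under quantiles were 27 upwards and 7 downwards, beside 33.7% and 29.2% of all genes. With the deposited spike-in scaling the medians were 0.95 and 1.69, and 45 genes were higher, with 44 past the adjusted p upwards beside 56% of all genes. Relative to the median of all genes, the proteasome genes were 0.70 higher with library-size values, 0.69 with total reads and 0.73 with spike-ins. These 3 scalings divide each library by a constant, which shifts all its genes nearly alike. Their likeness here was therefore fixed in advance and gives no separate support. Under quantile normalisation, which can shift genes by unlike amounts, the proteasome genes were 0.17 higher. The number of genes above the median of all genes was 44 under the first 3 scalings, for the same reason, and 31 under quantiles.

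**Figure D2:**
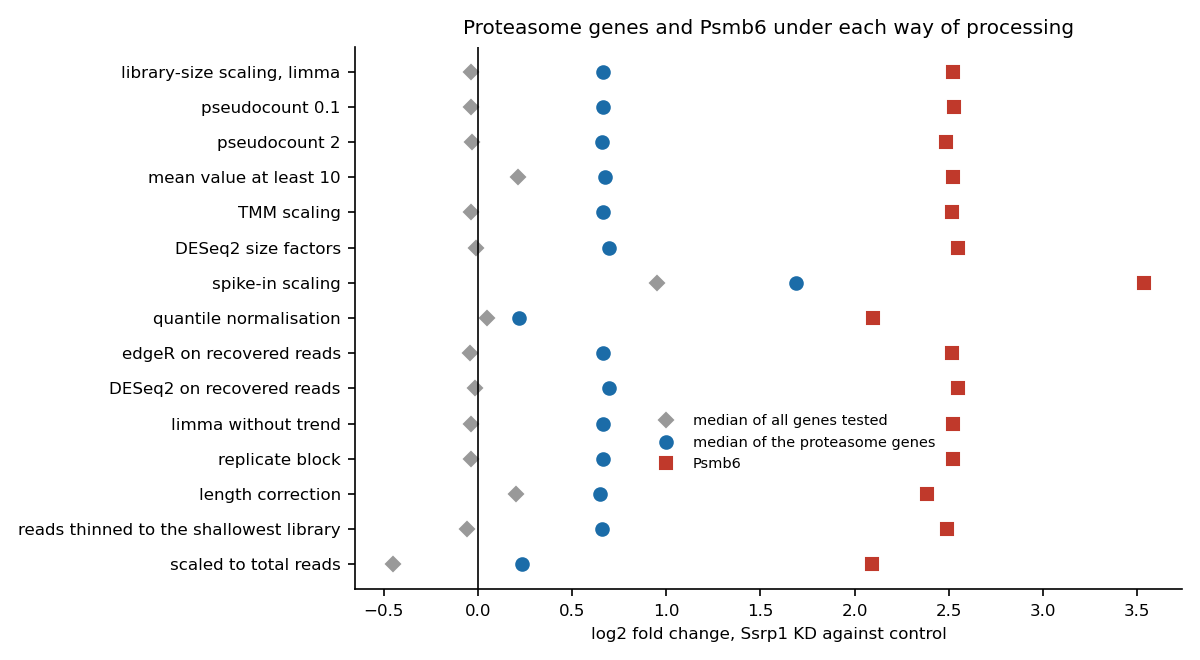
Median log2 fold change of all genes tested (diamonds), median of the proteasome genes (circles) and log2 fold change of *Psmb6* (squares) under each way of scaling or testing, *Ssrp1* KD against control. The median of the proteasome genes lies to the right of that of all genes in every row, by 0.17 under quantile normalisation and 0.44 to 0.73 in the others, and *Psmb6* stays between 2.09 and 3.54.

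*Psmb6*, the caspase-like catalytic subunit, is the gene with the largest rise. It lies on chromosome 11 (mm10, 70525357 to 70527858, plus strand). It was at 60.0, 49.4, 47.4 and 53.5 normalized reads in the control libraries and at 302, 299.8, 324 and 286 in the KD libraries. The lowest KD library was well above the highest control library. The means were 52.6 ± 5.59 and 303 ± 15.9 (SD, n = 4 each), the log2 fold change was 2.52 (SE 0.07, adjusted p = 1.86e-21), and an exact two-sided permutation test gave p = 0.0286, the smallest that 4 against 4 libraries can give. It ranked 22 of 15384 genes by log2 fold change, and the next proteasome gene, *Psmb10*, was at 1.53. Annotated pseudogenes of *Psmb6* share little with it at read scale: of all 50 bp windows in its exons, 1.76% occur identically in *Psmb6-ps2* and 0% in *Psmb6-ps*.

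The promoters of *Psmb6* and of 4 other genes past both thresholds are shown, since the results turn on these genes and they moved by unlike amounts or, for *Psmb9*, in the other direction. Each is 300 bases from RefSeq (GRCm38.p6), from 250 before the annotated start to 50 after it, 5′ to 3′ on the gene's strand. Capitals mark matches, on either strand, to CCAAT (the box bound by the factor NF-Y), CCGGAAG (the core of ETS factor sites), TGACNNNGC (the core of antioxidant response elements, which NRF1 and NRF2 bind), GGGCGG (a GC box) or the TATA box letters TATAAA.
Psmb6 (chr11:70525107-70525406, plus strand): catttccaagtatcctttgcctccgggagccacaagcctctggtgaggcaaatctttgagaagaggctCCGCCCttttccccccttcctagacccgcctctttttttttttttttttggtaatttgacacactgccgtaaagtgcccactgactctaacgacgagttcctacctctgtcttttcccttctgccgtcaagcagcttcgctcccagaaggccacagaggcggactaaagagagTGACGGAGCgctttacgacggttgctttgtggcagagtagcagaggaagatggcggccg
Psmb5 (chr14:54617946-54618245, minus strand): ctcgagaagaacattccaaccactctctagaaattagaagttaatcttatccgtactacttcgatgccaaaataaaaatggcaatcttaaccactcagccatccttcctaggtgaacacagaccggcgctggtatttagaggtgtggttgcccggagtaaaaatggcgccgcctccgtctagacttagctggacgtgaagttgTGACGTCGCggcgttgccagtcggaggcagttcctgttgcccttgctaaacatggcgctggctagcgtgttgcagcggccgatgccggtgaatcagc
Psmb10 (chr8:105938343-105938642, minus strand): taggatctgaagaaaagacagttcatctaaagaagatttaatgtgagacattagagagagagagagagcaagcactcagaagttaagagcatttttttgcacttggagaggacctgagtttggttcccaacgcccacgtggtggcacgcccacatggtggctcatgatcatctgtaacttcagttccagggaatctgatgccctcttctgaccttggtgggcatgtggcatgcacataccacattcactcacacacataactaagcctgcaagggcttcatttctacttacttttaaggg
Psmb9 (chr17:34187281-34187580, minus strand): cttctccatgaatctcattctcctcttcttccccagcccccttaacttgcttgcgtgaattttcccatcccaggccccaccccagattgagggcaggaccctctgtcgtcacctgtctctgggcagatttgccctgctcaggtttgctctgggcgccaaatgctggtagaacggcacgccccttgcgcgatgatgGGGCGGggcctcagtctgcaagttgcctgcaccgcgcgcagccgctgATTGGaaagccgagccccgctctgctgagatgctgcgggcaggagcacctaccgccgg
Psmg1 (chr16:95990911-95991210, minus strand): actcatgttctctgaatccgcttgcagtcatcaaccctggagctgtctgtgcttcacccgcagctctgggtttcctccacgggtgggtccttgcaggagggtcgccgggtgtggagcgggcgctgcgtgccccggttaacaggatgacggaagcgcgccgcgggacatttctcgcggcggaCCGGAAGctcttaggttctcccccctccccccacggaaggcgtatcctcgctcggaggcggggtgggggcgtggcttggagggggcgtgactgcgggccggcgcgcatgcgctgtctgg

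The TGACNNNGC match of *Psmb6* starts 9 bases before the start site and its GC box, on the opposite strand, 182 bases before it. *Psmb5* holds the same TGACNNNGC letters 47 bases before its start, and *Psmg1* a CCGGAAG match 69 bases before. The window of *Psmb10* holds none of the 5 motifs, and that of *Psmb9* holds a CCAAT match and a GC box. Of the 48 genes, 40 had an entry (43 windows, as some have several starts), and *Psma8*, *Psmb1*, *Psmb2*, *Psmb7*, *Psmc3*, *Psmd3*, *Psmd7* and *Psmg2* did not. Over these windows, CCGGAAG occurred in 16 (37.2%), where 8.86% of all 32851 windows hold it, and GGGCGG in 24 (55.8%), where 35.7% do. TGACNNNGC occurred in 6 (14%) beside 12.4%, CCAAT in 15 (34.9%) beside 37.4%, and TATAAA in 4 (9.30%) beside 13.6%. The 6 genes with TGACNNNGC were *Psmb5*, *Psmb6*, *Psmc6*, *Psmd12*, *Psmd9* and *Psme4*, and their median log2 fold change was 0.45, beside 0.71 for the 32 with an entry and a value that lack it. For CCGGAAG the medians were 0.56 (15 genes) and 0.75 (23 genes). They were 0.53 (14) and 0.79 (24) for CCAAT, 0.54 (23) and 0.78 (15) for GGGCGG, and 0.48 (3) and 0.68 (35) for TATAAA. A lower median with the motif was thus common to all 5 and not particular to any. The windows of the proteasome genes had a median GC content of 59.0%, beside 52.7% for all windows. A match of letters is a description and does not show that a factor binds there.

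Among the constitutive core beta subunits, the level of *Psmb6* in control cells was low and in KD cells was not. Per kb of exon, which allows genes to be compared, *Psmb6* was at 50.7 ± 5.39 in control, where the 6 other core beta genes lay between 38.1 (*Psmb5*) and 251 (*Psmb4*). In KD it was at 292 ± 15.3, among the others at 76.7 to 461. It ranked 12 of the 14 core genes in every control library and 4 or 5 of 14 in the KD libraries. On the log2 scale, *Psmb6* minus the mean of the 6 others was -1.09, -1.21, -1.37 and -1.21 in the control libraries and 0.64, 0.67, 0.71 and 0.71 in the KD libraries. The difference between the groups was 1.90 (control -1.22 ± 0.11, KD 0.68 ± 0.03, SD, n = 4 each). This value compares genes within a library, so dividing a library by a constant can hardly move it. It was 1.90 to 1.93 over the library-size, total-read, spike-in and quantile scalings, and only the last could have moved it much.

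**Figure D3:**
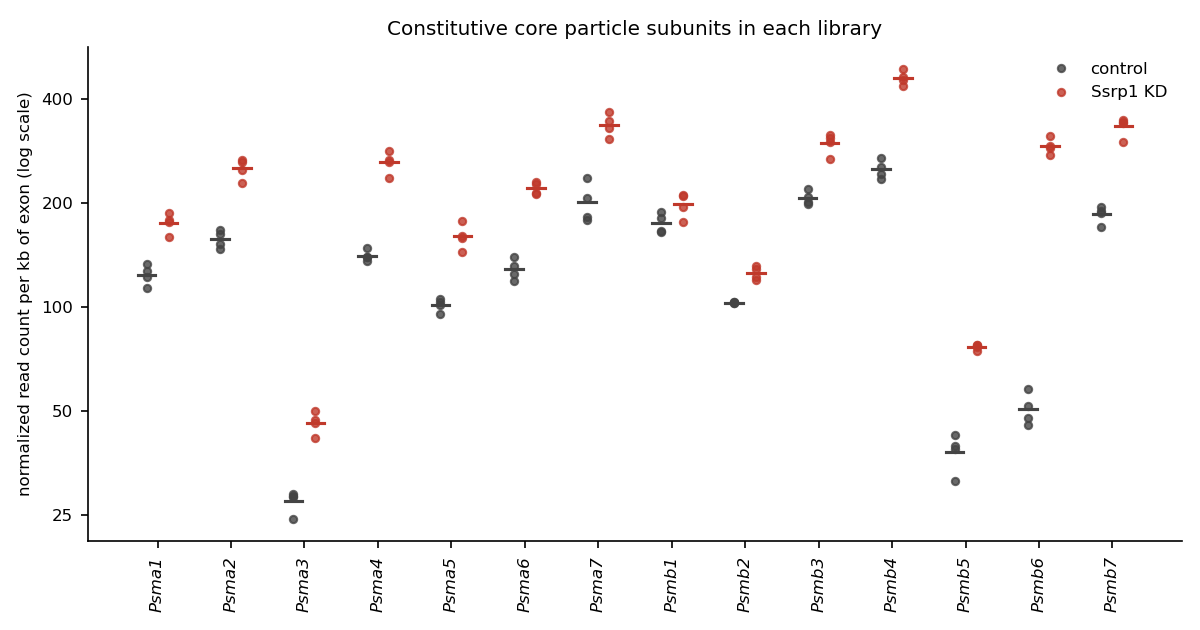
Normalized reads per kb of exon (log scale) of the 14 constitutive core subunits in each control (grey) and *Ssrp1* KD (red) library, with bars at the means of 4 libraries. *Psmb6* moves from 50.7 to 292, while *Psma3* and *Psmb5*, the core genes under it in control (27.5 and 38.1), lie at 46.3 and 76.7 in KD.

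The other core beta genes spread from *Psmb1* to *Psmb5*. *Psmb5*, the chymotrypsin-like subunit, went from 33.9, 27.4, 37.1 and 34.5 to 67.8, 66.8, 67.9 and 64.8, with no overlap (log2 fold change 1.01, SE 0.08, adjusted p = 7.82e-12). It sits on the fold threshold: 0.92 without control replicate 2, 0.999 without KD replicate 1 or 3, 0.79 after correction for exon length, 0.80 under quantile normalisation and 0.58 under total-read scaling. It was past both thresholds in 15 of the 24 settings. An exon of *Psmb5* shares 109 bp with *Mir686* on the same strand. *Psmb7*, the trypsin-like subunit, went from 188, 166, 181 and 184 to 338, 331, 332 and 291 (0.84, SE 0.06, adjusted p = 5.72e-13), and 22.5% of its 50 bp exon windows occur identically in the pseudogene *Psmb7-ps1*. *Psmb4*, a structural subunit of the ring, rose by 0.88, *Psmb3* by 0.52 and *Psmb2* by 0.28. *Psmb1* was at 195, 171, 171 and 187 in control and 217, 202, 219 and 183 in KD, and its groups overlapped. Under total-read scaling *Psmb3* was at 0.09, *Psmb2* at -0.15 and *Psmb1* at -0.25, and under quantile normalisation they were at 0.04, -0.07 and -0.32.

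The 7 alpha subunits form the outer rings and the gate of the barrel. All 7 passed the adjusted p upwards with library-size values, with log2 fold changes from 0.50 (*Psma1*) to 0.89 (*Psma4*) and a median of 0.75, and the KD libraries of each lay above its control libraries. *Psma4* went from 163, 153, 149 and 153 to 309, 288, 293 and 259.9 (SE 0.06, adjusted p = 1.28e-13), and *Psma1* from 154, 142, 159.8 and 167 to 224, 221, 235 and 200.2 (SE 0.06, adjusted p = 3.06e-08). Both pairs of groups were clear of each other. *Psma4* shares 45 bp of exon with *AY074887* on the opposite strand. For *Psma5*, which rose by 0.65, 33.5% of the 50 bp exon windows occur identically in the pseudogene *Psma5-ps*. The median of the class was 0.32 under total-read scaling and 0.21 under quantile normalisation. *Psma8*, the testis-specific alpha subunit, was low, at 15.4 to 17.9 in control and 27.0 to 30.3 in KD, and rose by 0.80 (SE 0.09, adjusted p = 1.47e-08).

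The inducible catalytic subunits did not move together. *Psmb10*, the counterpart of *Psmb7*, went from 13.7, 23.9, 19.6 and 18.3 to 58.7, 53.3, 57.3 and 49.3 (log2 fold change 1.53, SE 0.11, adjusted p = 1.15e-12). Its lowest KD library was above the highest control library by more than the range of either group. *Psmb9*, the counterpart of *Psmb6*, was at 3.40, 5.68, 4.13 and 3.83 in control and 0.865, 1.76, 2.2 and 1.62 in KD and was among the lowest of the set. It was lower in every KD library and fell by 1.19 on the log2 scale (SE 0.25, adjusted p = 0.000103). That call was lost without KD replicate 1 (-0.997, adjusted p = 0.000807), and with spike-in scaling (-0.32) or quantile normalisation (-0.02). It was also lost with a pseudocount of 2 (-0.79) and under limma's treat, a test against a fold of 1 (adjusted p = 0.91). *Psmb9* was past both thresholds in 18 of 23 settings, and a demand for a mean value of at least 10 removed it. *Psmb8*, the counterpart of *Psmb5*, had no RNA-seq value. So *Psmb6* rose while *Psmb9* fell, and *Psmb7* and *Psmb10* both rose. Per kb, *Psmb6* was at 292 and *Psmb9* at 2.00 in KD, against 50.7 and 5.28 in control.

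In the base, all 9 genes passed the adjusted p upwards, with a median of 0.54 and a range from 0.23 (*Psmc6*) to 0.81 (*Psmc5*), both ATPases. *Psmc5* went from 109, 92.4, 92.0 and 106 to 178, 181, 174 and 165, with clear groups (SE 0.06, adjusted p = 5.18e-12). *Psmc6* was at 116, 96.4, 101 and 107 in control and 126, 124, 129.6 and 113 in KD, and the groups overlapped (SE 0.06, adjusted p = 0.00184), and it was at -0.13 and -0.20 under quantile and total-read scaling. *Psmc6* also shares 552 bp of exon with *Gm20266* on the opposite strand. The ubiquitin receptor *Psmd4* rose by 0.73, and the large scaffold subunits *Psmd1* and *Psmd2* by 0.48 and 0.56, though these last were at -0.15 and -0.19 under quantile normalisation. The base is the class whose direction turned under quantile normalisation, with a median of -0.04, and under total-read scaling it was 0.11.

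In the lid, 7 genes passed the adjusted p upwards and *Psmd11* downwards. *Psmd13* went from 140.1, 122, 120.0 and 130.2 to 250.5, 257, 260.1 and 248, with clear groups (log2 fold change 0.99, SE 0.06, adjusted p = 1.14e-14). *Psmd11* was at 76.2, 64.7, 69.2 and 73.4 in control and 55.4, 63.3, 57.8 and 60.5 in KD. Its KD libraries were all lower, though the closest libraries of the groups differed little, and it fell by 0.26 on the log2 scale (SE 0.07, adjusted p = 0.00136). With spike-in scaling it was at 0.76. The deubiquitinase *Psmd14* rose by 0.43 (at -0.0483 under quantile and -0.0044 under total-read scaling) and its partner *Psmd7* by 0.78. *Psmd6* (0.19, adjusted p = 0.00497) had overlapping groups and was at -0.23 and -0.24 under these scalings. The median of the lid was 0.53, and 0.10 under total-read scaling and 0.06 under quantile normalisation.

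All 4 activators passed the adjusted p upwards, with a median of 0.91. *Psme3*, which forms the nuclear activator ring, went from 77.5, 77.8, 82.9 and 81.0 to 163, 166, 153 and 168 (log2 fold change 1.02, SE 0.06, adjusted p = 5.32e-15). *Psme1* and *Psme2*, the interferon-inducible activator, rose by 0.83 and 0.99. *Psme2* was at 17.6, 16, 8.07 and 15.9 in control and 28.5, 26.6, 29.7 and 26.9 in KD, with control replicate 3 lower than the rest. *Psme4*, a large single-chain activator, went from 393, 361, 361 and 363 to 461, 462, 469 and 466 (0.33, SE 0.05, adjusted p = 2.71e-06), and was at -0.31 under quantile normalisation and -0.10 under total-read scaling. *Psme3* was past both thresholds by 0.02 only, and at 0.63 under quantile normalisation and 0.59 under total-read scaling.

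Of the 7 assembly factors, 6 passed the adjusted p upwards, and the median was 0.57, or 0.15 under total-read scaling. *Psmg4* went from 12.7, 10.8, 10.8 and 13 to 27.1, 27.9, 31.9 and 26.6, and the groups did not overlap (log2 fold change 1.23, SE 0.11, adjusted p = 3.7e-11). *Psmg1* went from 42.9, 40.1, 33.9 and 46.6 to 93.9, 90.8, 97.2 and 85.7, with clear groups as well (1.17, SE 0.08, adjusted p = 2.64e-13). Neither kept its place past both thresholds under total-read scaling (*Psmg4* 0.81, *Psmg1* 0.74) or treat, and *Psmg1* was at 0.90 under quantile normalisation. *Psmg3* rose by 0.81 and *Psmg2* by 0.57. These 4 are chaperones of the core particle. The chaperones of the base were *Psmd10* (0.52), *Psmd5* (0.48) and *Psmd9* (0.25, groups overlapping, and -0.17 under total-read scaling). After correction for exon length these were at 0.51, 0.62 and 0.48, and *Psmg2* at 0.44. *Psmc3ip*, caught by the rule, rose by 0.54 (SE 0.10, adjusted p = 2.34e-05).

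Exon length moved with the fold change and with the classes. Over all genes, the median log2 fold change was 0.34 among genes of up to 1636 bp of exon, 0.03 from 1637 to 2689 bp, -0.12 from 2690 to 4141 bp and -0.33 above that. Proteasome genes are short, with a median exon length of 1274 bp, against 2690 bp for all genes tested, and the core beta genes have a median of 949 bp, the lid 1582 bp. After a loess correction for length, the medians were 0.58 for core alpha, 0.68 for core beta, 0.67 for the base and 0.64 for the lid, which puts core alpha under the base and the lid. The median of all proteasome genes was then 0.65, beside 0.20 for all genes. *Psmb6* was at 2.38, and *Psmg4*, the shortest at 541 bp, was at 0.78.

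A list of other genes of the pathway (assembly, ubiquitin and NRF1-related genes) had 27 genes with an RNA-seq value. Of these, 12 (44.4%) passed the adjusted p upwards and 7 (25.9%) downwards, beside 35.4% and 37.3% of all genes, and 8 in neither direction. Their median log2 fold change was 0.09, and 2 (7.41%) were past both thresholds upwards, beside 8.07%. These were *Pomp*, the maturation factor of the core particle, and *Rps27a*, a ribosomal protein gene fused to ubiquitin. *Pomp* went from 78.4, 70.9, 74.8 and 68.5 to 154, 162, 160.0 and 142 (1.07, SE 0.06, adjusted p = 1.01e-14). *Rps27a* went from 263, 192, 185 and 230.5 to 491, 467, 487 and 439.8 (1.12, SE 0.08, adjusted p = 3.88e-13). Neither was past both thresholds under total-read scaling (*Pomp* 0.64, *Rps27a* 0.69), quantile normalisation (0.70 and 0.53), length correction (0.77 and 0.88) or limma's treat at 1, a test against that fold. *Nfe2l1*, the gene of NRF1, went from 107, 95.9, 87.0 and 104 to 136, 148, 143 and 154 (0.56, SE 0.07, adjusted p = 1.22e-08), and was at 0.13 under total-read scaling. *Adrm1*, a ubiquitin receptor of the base, rose by 0.29 (SE 0.06, adjusted p = 0.000149), and was at -0.08 under quantile normalisation and -0.14 under total-read scaling. *Psmf1*, a proteasome inhibitor, went from 40.4, 33.2, 33.4 and 36.0 to 28.5, 26.1, 27.8 and 23.5, and fell by 0.43 on the log2 scale (SE 0.09, adjusted p = 9.55e-05), whereas its spike-in scaled means were 25.4 in control and 38.7 in KD. The proteasome-bound deubiquitinases *Usp14* and *Uchl5* were each at 0.01, with overlapping groups.

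The 5 genes whose log2 values followed *Psmb6* most closely over the 8 libraries were *Rpa2*, *Park7*, *Gsta4*, *Prc1* and *Hist1h2bl*, with Pearson's r above 0.999. The libraries form 2 groups that differ in all of these genes, so the coefficients describe the step between the groups and no more. Their log2 fold changes were 1.20, 1.20, 1.72, 0.83 and 1.51.

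FACT peaks were assigned to 14 of the 48 proteasome genes in all. An SSRP1 peak was assigned to 13 genes (27.1%), beside 27.7% of protein-coding genes, and 37.7% of those with an RNA-seq value. A SUPT16 peak was assigned to 6 (12.5%), beside 13.4% and 19.4%. Both shares are near or below that of all genes. By distance, an SSRP1 peak lay within 1000 bp of a start site for 14 genes (29.2%), beside 18.3% of protein-coding genes and 26.9% of those with a value, and a SUPT16 peak for 5 (10.4%), beside 10.7% and 16%. The 14 were *Psma3*, *Psmb10*, *Psmc2*, *Psmc3*, *Psmc3ip*, *Psmc6*, *Psmd1*, *Psmd3*, *Psmd7*, *Psmd11*, *Psmd13*, *Psme2*, *Psmg1* and *Psmg2*, and the 5 were *Psma7*, *Psmb10*, *Psmc6*, *Psmd3* and *Psme4*. The peaks at *Psma3*, *Psmc2* and *Psmd13* carry the name of a neighbouring gene in the list. The peaks were called on both replicates together and have no heights, so no test between replicates could be made.

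*Psmb6* had no peak of either subunit, and the nearest ones lay 96285 bp (SSRP1) and 114844 bp (SUPT16) from its start site. No core beta gene had a start-site peak. *Psmb3* was assigned SSRP1 peaks at chr11:97710900-97711194 and chr11:97711782-97712076, centred 7613 and 8495 bp downstream of its start. *Psmb10* had an SSRP1 peak at chr8:105937118-105937608, centred 1029 bp downstream of the start, and a SUPT16 peak at chr8:105938280-105938490, centred 7 bp from it. *Psmg1* had an SSRP1 peak centred 9 bp from its start (chr16:95990706-95991196), which covers most of the promoter window printed above. Both lists named 5 of the genes (10.4%), beside 9.01% of protein-coding genes, and the peaks of the 2 subunits overlapped at 3 of them. At *Psmc6* (chr14:45329802-45330096 and chr14:45329900-45330180) they shared 196 bp, and at *Psmd3* (chr11:98682570-98682864 and chr11:98682430-98683060) 294 bp, both over an exon. At *Psmd7* the shared stretch lay outside the gene.

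**Figure D4:**
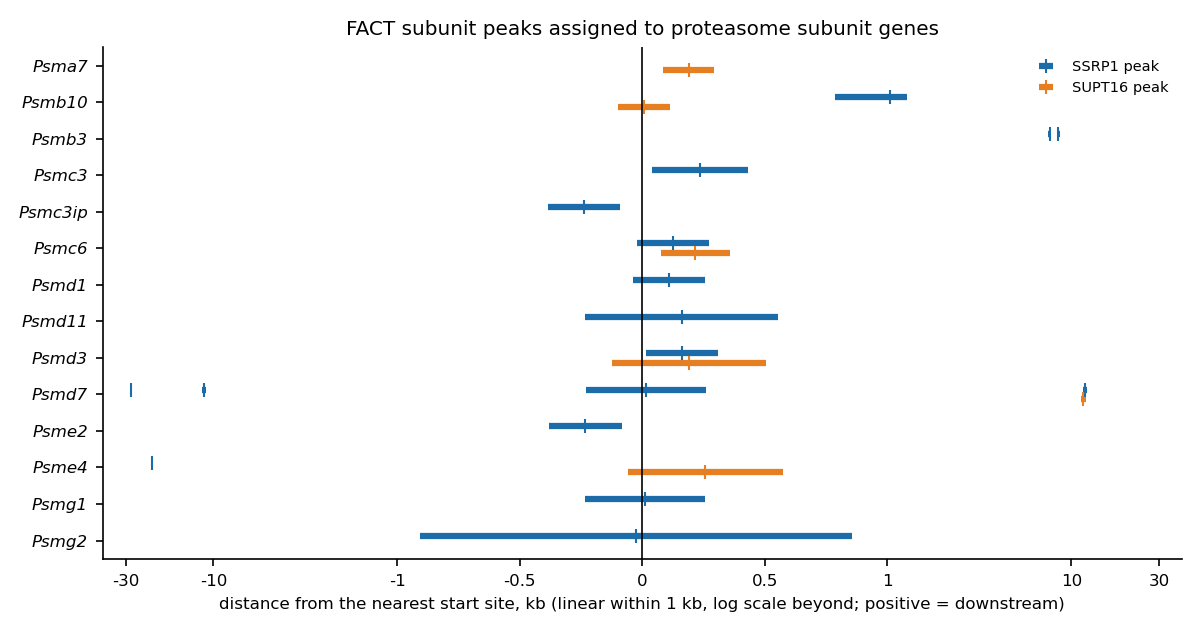
Position of each SSRP1 (blue) and SUPT16 (orange) peak assigned to a proteasome gene, as distance from the gene's nearest annotated start site in kb (linear within 1 kb, log scale beyond, positive downstream). Bars span the peak and ticks mark its centre. Most lie within 0.5 kb of a start, while those of *Psmb3*, most of *Psmd7* and the SSRP1 peak of *Psme4* lie far from one.

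The genes with an assigned peak did not stand out in KD. The median log2 fold change was 0.56 over the 14 genes with a peak of either subunit (-0.26 to 1.53) and 0.71 over the 32 without one (-1.19 to 2.52). Of the 7 genes past both thresholds, 2 (*Psmb10* and *Psmg1*) had an assigned peak and 5 had none.

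In chromatin RNA of untreated cells, the proteasome genes were sampled by few reads. The 2 libraries held 3441643 and 3393923 reads on genes, of which 5.56% and 9.35% were on protein-coding genes, and 754 and 1136 on proteasome genes. The median level of the 48 genes was 3.70 CPM (reads scaled to library size) per kb of exon, and 3.01 and 4.92 in the separate libraries, against 0.291 for all protein-coding genes and 0.749 for those with an RNA-seq value. By class the median was 5.24 for core beta, 5.07 for the base, 4.83 for the lid, 4.81 for core alpha, 3.06 for the activators and 0.809 for the assembly factors. *Psmb9* and *Psmd10* had 0 reads, where 3 reads would be 0.545 and 0.301 CPM per kb.

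*Psmb6* was not low in this fraction. It had 18 and 22 reads, which is 5.65 CPM per kb (95% Poisson interval of the summed reads 4.04 to 7.69, counting error only). It ranked 4 of the 14 core genes, close to *Psmb4* (16 and 22 reads, 5.86), *Psmb7* (16 and 20, 5.44) and *Psmb1* (10 and 27, 5.24), and the intervals of these genes overlap. In control RNA-seq, the level per kb was 50.7 for *Psmb6*, against 251, 185 and 175 for these 3. *Psmb5* was low in both, at 0 and 2 reads and 0.338 CPM per kb in chromatin RNA. *Psma3*, the other core gene with a low control level (27.5 per kb), had 10 and 24 reads and 3.48 CPM per kb. The fractions come from different cells, untreated and transfected, and from different library types, so their ratio has no error estimate. Across the 46 genes with both values, Spearman's rho was 0.74, and across the 14 core genes 0.38. Both are descriptions across genes that share the same libraries.

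**Figure D5:**
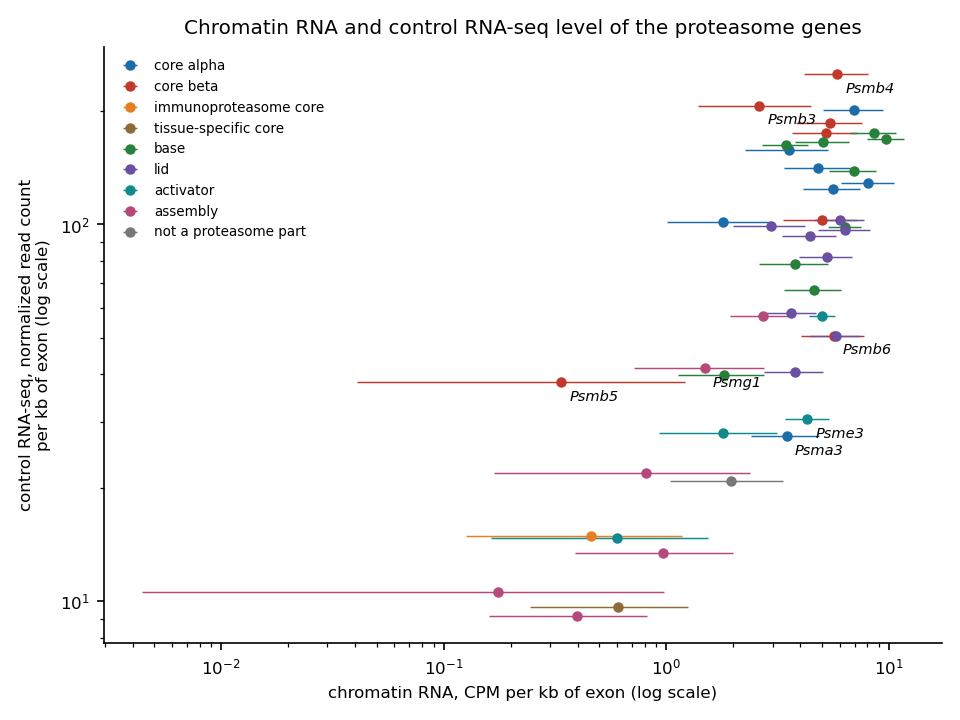
Chromatin RNA of untreated cells (CPM per kb of exon from the summed reads of 2 libraries, with the 95% Poisson interval) against the mean control RNA-seq level (normalized reads per kb of exon, 4 libraries), both on log scales, for the proteasome genes with reads in both. *Psmb6* lies with *Psmb4* on the horizontal axis (5.65 and 5.86) and far under it on the vertical axis (50.7 and 251).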

How the data were processed

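RNA-seq signal per gene was made by the authors with STAR on mm10 and featureCounts. The libraries were of total RNA depleted of ribosomal RNA and prepared with a directional kit. The sources used here do not give the strand setting of the counting. Genes above 1 CPM were kept, and values were deposited as reads divided by a library-size factor and, separately, by a spike-in factor. Whole reads were recovered from the library-size values (100% whole within 0.1). Each chromatin RNA count was deposited raw. ChIP-seq reads had been aligned with Bowtie2 2.2.6; PePr peaks, from both replicates together, were assigned to genes by ChIP-Enrich. The deposited tables of KD against control, NPCs against mESCs and exon usage hold the authors' own fold changes and p-values and were not used, so NPCs, and the other assays of the series, were not analysed here.

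limma 3.58.1 (with trend) compared 4 KD with 4 control libraries over 15384 genes, on log2(library-size value + 0.5). The thresholds were those of the study: a log2 fold change beyond 1 in size and an adjusted p under 0.01. The alternatives were count tests on the recovered reads (edgeR 4.0.16, DESeq2 1.42.0), pseudocounts of 0.1 and 2, a mean value of at least 10, other scalings, treat at 1, no trend, a loess correction for exon length, blocking on the replicate number, and leaving out 1 library at a time. Scaling to total reads and thinning to the shallowest library were chosen after seeing the data. The test scripts were tested on simulated data. Start sites were those of RefSeq (GRCm38.p6), whose chromosomes are those of mm10. Peaks were also counted within 500 and 5000 bp of a start site and from 500 bp in length. Python 3.11.15 and R 4.3.3 were used.

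The members and gene lists were chosen with earlier results of these data known. Named by rule were *Psmb6*, all members past both thresholds, the catalytic pairs, the highest and lowest of each class, members with a start-site peak, and *Nfe2l1*, *Pomp*, *Adrm1* and called genes of the pathway list; *Psmf1*, *Usp14*, *Uchl5* and further members were named after their values were seen. The p-values of limma set the difference between the groups against the spread between the 4 libraries of a group, moderated across genes. These libraries are biological replicates per the study's methods. In bulk RNA, fewer cells of a type and less RNA per cell cannot be told apart. Intervals and floors cover counting error only.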

Additional observations from a re-analysis of the deposited data

Results flagged for a closer look

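Among 92 groups of 4 libraries, a group being 1 gene in control or in KD, 6 held a library far from the other 3, with a gap to its nearest neighbour past Dixon's 95% critical value for 4 samples. Chance gives about 1 in 20 groups, and the genes are measured in the same libraries. *Psma3* was at 35.0 normalized reads in control replicate 4, below 40.5 to 41.4 in the others. *Psmd4* was at 238 in control replicate 1, above 212 to 215, and *Psme4* at 393 in the same library, above 361 to 363. *Psmd7* was at 74.6 in control replicate 3, below 82.6 to 84.1. *Psmb7* was at 291 in KD replicate 4, below 331 to 338, and *Psmd3* at 162 in KD replicate 3, below 181 to 184. In all 6 genes the KD libraries lay above the control libraries.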

How the results depend on the processing

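The median and *Psmb6* kept their direction under every alternative run, while counts moved. Past both thresholds upwards were 44 genes with spike-in scaling (beside 48.1% of all genes), 2 with limma's treat at 1 (3.36%) and 2 with total-read scaling (2.23%), and 0 were past them downwards with a pseudocount of 2, a mean of at least 10 (which removes *Psmb9*), spike-ins, quantiles or treat (7.03% to 15.5% of all genes). Past the adjusted p, 27 rose under quantile normalisation (33.7% of all genes) and 24 with total reads (18%). The number that fell was 1 with a mean of at least 10, no trend or length correction (26.1% to 35.8% of all genes). It was 0 with spike-ins (8.75%), 7 with quantiles (29.2%) and 5 with total reads (56.5%). The median was 1.69 with spike-ins, 0.22 with quantiles and 0.24 with total reads. With 1 library left out, 5 to 8 genes were past both thresholds upwards, beside 7.87% to 8.55% of all genes. Downwards there were 0 to 1 (0 without KD replicate 1), beside 19.8% to 21.7%. Past the adjusted p, 40 to 43 rose (33.4% to 36.1% of all genes) and 2 fell (35.1% to 37.9%). The median was then 0.63 to 0.71, *Psmb6* 2.47 to 2.59 and its value against the other beta genes 1.85 to 1.94. Peaks of at least 500 bp gave 3 genes for SSRP1 (6.25%, beside 12.7% of protein-coding genes) and 3 for SUPT16 (6.25%, beside 4.15%). The chromatin RNA median was 51.2 when scaled to protein-coding reads and 5.27 CPM without division by length, and 3.01 to 4.92 in single libraries.

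Quantile normalisation turned 13 values: the base median to -0.0448, *Psmb1* -0.32, *Psmb2* -0.0666, *Psmc1* -0.15, *Psmc2* -0.0448, *Psmc4* -0.0094, *Psmc6* -0.13, *Psmd1* -0.15, *Psmd14* -0.0483, *Psmd2* -0.19, *Psmd6* -0.23, *Psme4* -0.31 and *Adrm1* -0.0791. Total-read scaling turned 10: the immunoproteasome core median to -0.22, *Psmb1* -0.25, *Psmb2* -0.15, *Psmc2* -0.15, *Psmc6* -0.20, *Psmd14* -0.0044, *Psmd6* -0.24, *Psmd9* -0.17, *Psme4* -0.10 and *Adrm1* -0.14. Spike-in scaling turned *Psmd11* to 0.76. The cause was not tested.

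Libraries with the same replicate number did not deviate together (r from -0.06 to 0.04 over 10765 genes, 0 of 4 closest to their own number). With the replicate block, 6 genes were past both thresholds upwards (beside 8.07% of all genes) and 1 downwards (20.6%). Past the adjusted p were 43 upwards (35.5%) and 2 downwards (37.4%), and the median was 0.67 and *Psmb6* 2.52. KD libraries were deeper than control libraries. Thinning all to the shallowest gave 4 genes past both thresholds upwards, beside 7.97% of all genes, and a median of 0.66.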
